A study of Mus musculus with 3 samples.

Results

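A set of 10 genes of the non-keratin intermediate filament family was followed by name in the deposited expression table: Vim, Gfap, Des, Prph, Nefl, Nefm, Nefh, Ina, Nes and Synm. All 10 were found among the 52550 genes of the table, and each had at least 1 read in at least 1 library. The cells were live reporter-positive (LepR+) cells sorted by fluorescence and made into Smart-Seq2 libraries, and they came from superior cervical ganglia, which hold sympathetic neurons and their glia, of male mice aged 10 weeks. The genotype label is LepRCRE::Ai32, which combines Cre recombinase under the control of the leptin receptor gene with a Cre-dependent channelrhodopsin fused to yellow fluorescent protein. The protocol names the sorted mice LepReYFP. Such a reporter also marks cells whose leptin receptor gene was active only in the past. The 3 libraries are biological replicates of 1 group, with no untreated, unsorted or other group, so levels could be set only against a fixed level and against other genes. How many cells and animals went into each library was not stated.

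Intermediate filaments are rope-like polymers of alpha-helical rod proteins that give a cell its resistance to stretch, and which genes a cell uses follows its type. Vimentin (Vim), GFAP (Gfap), desmin (Des) and peripherin (Prph) are type III proteins that can form filaments on their own. The neurofilament light, medium and heavy chains (Nefl, Nefm, Nefh), alpha-internexin (Ina), nestin (Nes) and synemin (Synm) are usually placed in type IV, and most of them need a partner to polymerise. In peripheral ganglia, vimentin is typical of fibroblasts, endothelium and glia, GFAP of non-myelinating Schwann cells and of satellite glia after injury, desmin of muscle and pericytes, and peripherin, internexin and the neurofilament chains of neurons.

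The family resemblance is shown here with the 36 bases of Vim coding sequence that the other 9 genes matched best. The Vim stretch lies within 1 exon on the forward strand at chr2:13580177-13580212 (GRCm38, GENCODE M21 transcripts), and each other line is the closest in-frame stretch of the longest coding sequence of 1 of 6 further genes. Capitals mark bases equal to those of Vim.
Vim: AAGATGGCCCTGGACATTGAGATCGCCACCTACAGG
Des: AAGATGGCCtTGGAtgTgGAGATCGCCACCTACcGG
Nefl: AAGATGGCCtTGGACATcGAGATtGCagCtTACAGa
Nefh: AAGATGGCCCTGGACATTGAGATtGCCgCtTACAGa
Ina: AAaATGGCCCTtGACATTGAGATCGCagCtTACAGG
Nes: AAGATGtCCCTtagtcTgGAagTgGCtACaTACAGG
Synm: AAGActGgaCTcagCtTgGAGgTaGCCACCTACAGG
The other 3 genes are not reported here, so no closest gene can be read from these lines. Among the 6 shown, Nefh matched 32 of the 36 bases (88.9%), Des and Ina 31 each (86.1%) and Nefl 29 (80.6%). Synm and Nes were the most distant of those shown, with 25 (69.4%) and 24 (66.7%). Over whole transcripts, with the other gene read on either strand, the longest run of bases identical to Vim was 23, in Nefh. It was 20 in Gfap and 13 to 18 in the others. These runs need not lie in coding sequence, and identity outside the 36 bases was not measured otherwise. How the counting treated reads that match several places was not stated.

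Vim was the only 1 of the 10 genes with substantial RNA in all libraries. It stood at 779, 733 and 555 TPM (a level scaled to gene length and library total) in replicates 1, 2 and 3, from 9439, 8899 and 6303 reads. Replicate 3 was the lowest, and no other of these genes exceeded 5.53 TPM in any library. The mean of 689 ± 118 TPM (SD, n = 3) ranked 108 of 27529 genes tested and 101 of the protein-coding ones. On the log2(TPM + 1) scale, which understates differences of low genes, Vim lay 8.42 above the value at 1 TPM (SE 0.19; limma's moderated test, adjusted p = 0.00359, above in 3 of 3 libraries). Of all genes tested, 16.4% were called above 1 TPM and 19.0% below. The Vim call was lost without replicate 1 (limma, adjusted p = 0.0687) and without replicate 2 (adjusted p = 0.0665), settings in which no gene of the table was called, against 4642 and 4445 genes above at an unadjusted p under 0.05. Vim (ENSMUSG00000026728.9) spans 13573927 to 13582826 of chromosome 2 on the forward strand, and overlaps no other gene of the table.

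**Figure D1:**
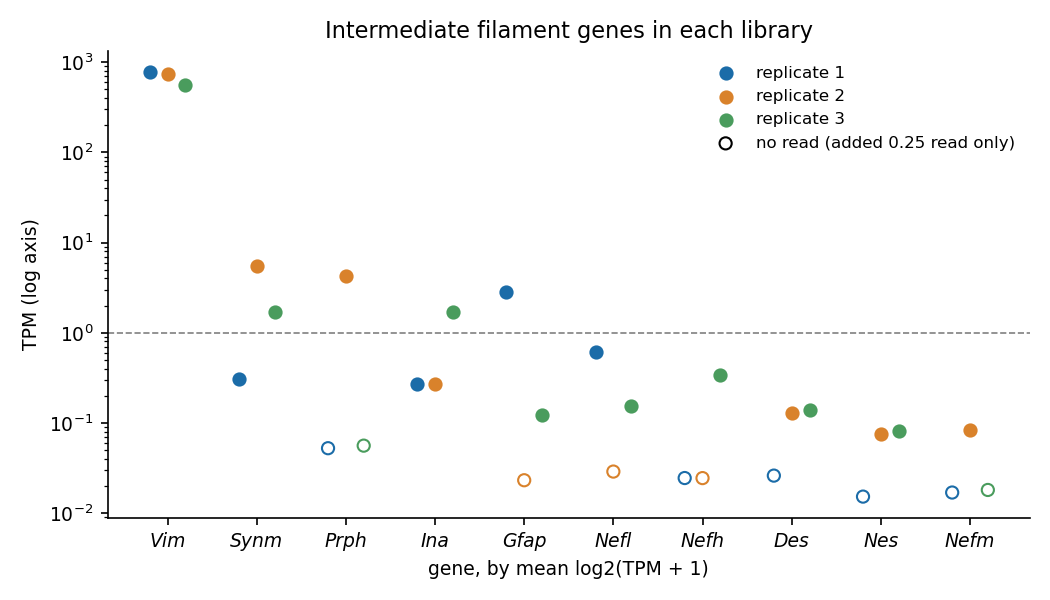
TPM of the 10 genes in each library on a log axis, filled where the gene had a read and open where the value holds only the 0.25 read that the deposited values add to every gene; the dashed line is 1 TPM. The 3 points of Vim sit between 555 and 779 TPM, and every other gene has at least 1 point below 1 TPM.

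Together the 10 genes summed to 783, 744 and 560 TPM, of which Vim made up 99.47%, 98.60% and 99.23%. The other 9 genes together reached 4.13, 10.4 and 4.32 TPM, so that Vim exceeded their sum 189-fold, 70.4-fold and 129-fold. Replicate 2 had the most RNA of the other genes and replicates 1 and 3 nearly the same. Which gene led the 9 differed in each library: Gfap held 68.0% of their TPM in replicate 1, Synm 53.1% in replicate 2 and Ina 39.6% in replicate 3. Of the 10 genes, 1 was called above 1 TPM (Vim), 4 below (Des, Nes, Nefh and Nefm) and 5 neither way. Over all genes tested, 16.4% were called above and 19.0% below. The median of mean log2(TPM + 1) was 0.51 for the 10 genes beside 0.88 over all genes tested. The calls below were lost without replicate 1, without replicate 2, at a level of 0.5 TPM and without mitochondrially encoded genes (limma), and Des also lost its call without replicate 3 (adjusted p = 0.0553).

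The markers of the ganglion's cell types, listed for this purpose, set the frame for these values. From 7858553 to 8441969 reads on genes were recovered per library, and mitochondrially encoded genes took 19.88% to 21.12% of TPM. The 14 glial markers summed to 2.40% to 2.91% of TPM and 13 lay above 1 TPM, led by Fabp7 and Cdh19. The 12 fibroblast markers, led by Dcn and Lum, summed to 0.447% to 0.669% with 5 above and 1 below. The 16 perineurial markers, led by Cldn1 and Sfrp5, summed to 0.0537% to 0.0817% with 4 above and 2 below. Perineurial is the name given to these cells in the title of the series, and their identity was not tested. The 12 endothelial markers, led by Emcn and Tek, summed to 0.0323% to 0.0463% with 3 above and 0 below (0 also at an unadjusted p under 0.05, limma throughout). The lists hold different genes, so their sums cannot be compared as shares of cells.

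Among the other type III genes, Gfap, the classic filament of astrocytes and reactive glia, had 30, 0 and 1 reads. This was 2.81 TPM in replicate 1 and 0.124 TPM in replicate 3, while 3 reads would have been 0.278 TPM in replicate 2. The libraries thus disagreed by 30 reads to none. Its mean log2(TPM + 1) minus the value at 1 TPM was -0.29 (SE 0.51; limma, adjusted p = 0.677), and with the reads of all libraries pooled, Vim had 707 times as many reads per base (95% exact binomial interval 498 to 1041, counting error only). That ratio was 13519 without replicate 1, and 452 and 544 without replicates 2 and 3. The 14 glial markers took 2.91%, 2.40% and 2.55% of TPM in replicates 1, 2 and 3, and each had a read in every library. Fabp7 and Cdh19 made up most of that sum. Fabp7 had 16339, 13137 and 13012 TPM and Cdh19 3995, 3330 and 5061, and neither ran in the order of Gfap, while the sum of the 14 markers did. The order of Gfap between replicates 2 and 3 rests on 1 read. Single glial markers, named after their values were seen, ran in different orders. Ednrb, an endothelin receptor, had 2290, 1048 and 1522 TPM, in the order of Gfap. Sox10, a glial transcription factor, had 26.7, 165 and 51.6 TPM, in another order. The part of glial RNA in the Gfap values was not tested. Gfap (ENSMUSG00000020932.14) spans 102887336 to 102900912 of chromosome 11 on the reverse strand, and overlaps the span of the non-coding gene Gm26668 on the opposite strand, which shares none of its exon bases and had 73, 1 and 17 reads. Whether some reads came from the opposite strand was not tested, since Smart-Seq2 does not mark strand.

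Des, the filament of muscle and pericytes, had 0, 1 and 1 reads, at most 0.139 TPM. It was called below 1 TPM (log2 difference -0.87, SE 0.15; limma, adjusted p = 0.0428). Pooled over libraries, Vim had 9751 times as many reads per base, with a counting interval of 2699 to 80525, and 6016 to 14514 times with 1 library left out. Of the 13 mural and smooth muscle markers, 6 lay above 1 TPM and 0 below (limma; 1 at an unadjusted p under 0.05), with Myl9 at 326 ± 63.6 TPM and Rgs5 at 128 ± 95.8 TPM (SD, n = 3), and the list summed to 0.0818%, 0.0756% and 0.0403% of TPM. Tagln and Cnn1 of that list had no read in any library. Acta2 of the same list had 718, 171 and 67 reads and was called above, and Myh11 had 25, 87 and 3. All are named here after their values were seen. Of 10 skeletal muscle markers, 0 lay above 1 TPM (limma; 0 also at an unadjusted p under 0.05), 2 lay below, 6 neither way and 2 had no read. Mylpf, a fast muscle light chain, had 369, 3 and 0 reads, and Tnni2 had 0, 11 and 0. Des (ENSMUSG00000026208.9) lies on chromosome 1 from 75360329 to 75368579, forward strand, and shares 220 exon bases with the antisense gene Gm15179, which had no read.

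Prph, the type III filament of peripheral neurons, was read in replicate 2 only, with 20 reads or 4.24 TPM. With no read in replicates 1 and 3, 3 reads would have been 0.630 and 0.672 TPM there. The log2 difference from 1 TPM was -0.15 (SE 0.63; limma, adjusted p = 0.859), and Vim had 484 times as many pooled reads per base (interval 314 to 793). The ratio was 299 and 361 without replicates 1 and 3, and at least 2063 without replicate 2, taking 3 reads over the remaining libraries as the limit. Prph (ENSMUSG00000023484.13) spans 99055174 to 99058978 of chromosome 15 on the forward strand in GENCODE M21, which lists a later version of the gene, so its length was solved from the values.

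The neurofilament triplet was close to unread. Nefl, the light chain on which neurofilaments are built, had 5, 0 and 1 reads, or 0.608 and 0.155 TPM in replicates 1 and 3. Nefm, the medium chain, had a single read, in replicate 2, at 0.0845 TPM, and Nefh, the heavy chain, had 3 reads, all in replicate 3, at 0.340 TPM. The triplet thus totalled 5, 1 and 4 reads per library, and no library held reads of all 3 chains. Nefm and Nefh were called below 1 TPM (log2 differences -0.94 and -0.84; limma, adjusted p = 0.0428 and 0.0486), and Nefl was not (-0.69, adjusted p = 0.0907). Vim had 2927 times the pooled reads per base of Nefl (interval 1344 to 7976), 30039 times those of Nefm (5391 to 1186520) and 6917 times those of Nefh (2366 to 33542). These ratios rest on 1 to 6 reads: that for Nefl was 10833 without replicate 1, and that for Nefm was at least 6397 without replicate 2, which held its only read. Nefl (ENSMUSG00000022055.7, 68083863 to 68089095, forward strand) and Nefm (ENSMUSG00000022054.11, 68082590 to 68124846, reverse strand) overlap on chromosome 14 and share 1108 exon bases in the annotation, so reads there cannot be assigned without strand. Nefh (ENSMUSG00000020396.8) lies on chromosome 11 from 4938754 to 4948064, reverse strand.

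Ina, which joins the triplet in many neurons, had 2, 2 and 13 reads, or 0.272, 0.271 and 1.71 TPM. Replicate 3 stood above the other libraries, which had the same number of reads. The log2 difference from 1 TPM was -0.29 (SE 0.33; limma, adjusted p = 0.532). Without replicate 3 it was -0.65 and Ina was called below (limma, adjusted p = 0.0364). Ina (ENSMUSG00000034336.3, chromosome 19, 47014698 to 47025327, forward strand) shares 456 exon bases with Nt5c2 on the opposite strand, which had 8, 114 and 82 reads.

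Markers of sympathetic neurons were partly present beside these 5 neuronal filament genes, whose reads summed to 7, 23 and 17. Of 17 neuron markers 2 lay above 1 TPM, 1 below and 13 neither way, and 1 had no read, with 0.0129%, 0.0125% and 0.0347% of TPM in replicates 1, 2 and 3. Slc18a2, the vesicular monoamine transporter, was 1 of those above, with 34.4, 49.1 and 282 TPM (122 ± 139, SD, n = 3; limma, adjusted p = 0.0409), and replicate 3 was the highest. Slc18a2 alone made up most of the list's TPM in replicate 3, and the sum of the other neuron markers was not highest there. Named after their values were seen, Tubb3, the neuronal tubulin, had 0, 243 and 1 reads, with its reads in the library that held those of Prph, and Snap25, a synaptic protein, had 9, 8 and 381, with most in the library where Ina was highest. Th and Dbh of the same list had 0, 1 and 4 reads and 4, 9 and 0 reads. Npy had no read, and these genes are also named after their values were seen. The part of neuronal RNA in the filament values was not tested, and in bulk libraries fewer cells of a type and less RNA per cell cannot be told apart.

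Nes, a filament of precursor, glial and endothelial cells that polymerises with vimentin, had 0, 1 and 1 reads over 6416 bases, at most 0.0814 TPM. It was called below 1 TPM (log2 difference -0.92, SE 0.15; limma, adjusted p = 0.0428). Vim had 16666 times its pooled reads per base, with a counting interval of 4613 to 137627, and 10282 to 24806 times with 1 library left out. Nes (ENSMUSG00000004891.16) spans 87971078 to 87980451 of chromosome 3 on the forward strand and overlaps no other gene of the table.

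Synm, a large filament protein that joins vimentin or desmin filaments to the dystrophin complex, was the most abundant of the 9 by mean. It had 6, 112 and 32 reads, or 0.308, 5.53 and 1.70 TPM, so replicate 2 was highest and replicate 1 lowest. Synm and Ina were the members besides Vim with a read in each library. The log2 difference of Synm from 1 TPM was 0.51 (SE 0.56; limma, adjusted p = 0.521), and -0.0900 without replicate 2. Vim had 275 times its pooled reads per base (interval 234 to 325, counting error only). Replicate 2 held 112 of the 150 reads, and the ratio was 2631, 133 and 329 in replicates 1, 2 and 3 and 693 without replicate 2. No single library lay between 234 and 325. Synm (ENSMUSG00000030554.16, chromosome 7, 67730160 to 67759742, reverse strand) shares 84 exon bases with Ttc23 and 426 with Gm45102 on the opposite strand, which had 911, 124 and 210 reads and no read.

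**Figure D2:**
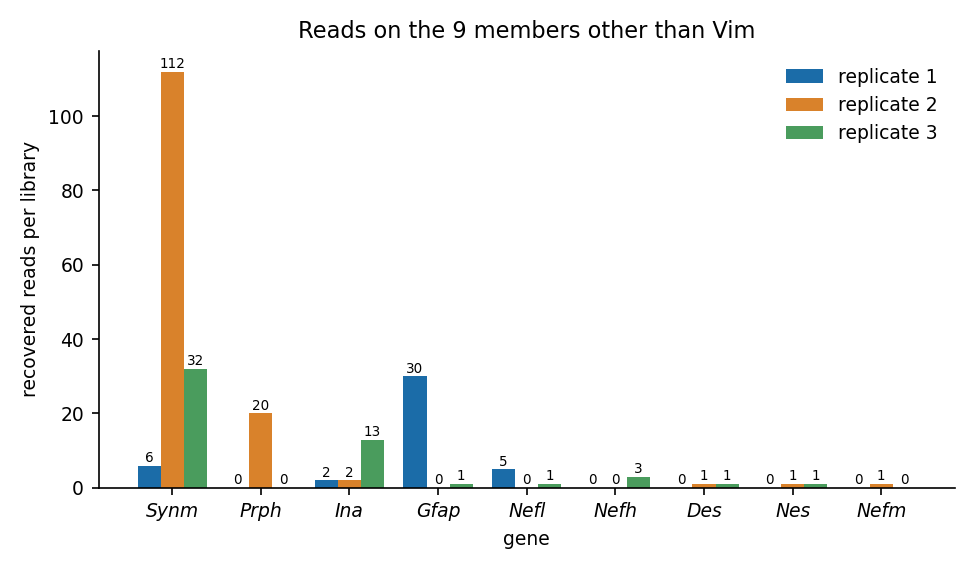
Recovered reads on the 9 genes other than Vim, as bars for each library with the count above each bar. Synm and Prph are highest in replicate 2, Gfap and Nefl in replicate 1, and Ina and Nefh in replicate 3, while Des, Nes and Nefm have at most 1 read in a library.

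Ordered by mean log2(TPM + 1), the genes ran Vim, Synm, Prph, Ina, Gfap, Nefl, Nefh, Des, Nes and Nefm. Only the step from Vim to Synm, 7.91 ± 1.22 (SD, n = 3), separated ranges that did not overlap. The next steps were 0.66 ± 0.60 from Synm to Prph, 0.14 ± 1.74 from Prph to Ina and 0.00 ± 1.45 from Ina to Gfap, and those further down were at most 0.40, from Gfap to Nefl. With 3 libraries, the exact permutation test by sign flips (two-sided) cannot go below p = 0.25. It gave 0.25 for Vim over Synm, Synm over Prph and Des over Nes, and 0.75 or 1 for the other 6 of the 9 steps (0.75 to 1 after Benjamini-Hochberg adjustment). With 1 library left out, 6 of the 8 steps below that from Vim to Synm changed sign: Prph over Ina, Ina over Gfap, Gfap over Nefl, Nefl over Nefh, Nefh over Des and Nes over Nefm. The order below Vim is a description of these libraries.

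The spread between libraries was small for Vim and wide for the genes in the middle of that order. The SD of log2(TPM + 1) was 0.26 for Vim, beside a median of 0.69 over genes in the same decile of mean level. The coefficient of variation of Vim was 17.1%, against the 1.10% that counting alone would give for its mean number of reads. Prph and Gfap, with SDs of 1.34 and 1.06, lay above the median of 0.62 in their decile, and Ina, with 0.63, lay near it. Synm, at 1.16, lay near the median of 1.18 in its own. The highest value was 121 times the lowest for Gfap and 80.9 times for Prph, both against a library that holds only the added 0.25 read, against 1.40 times for Vim.

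**Figure D3:**
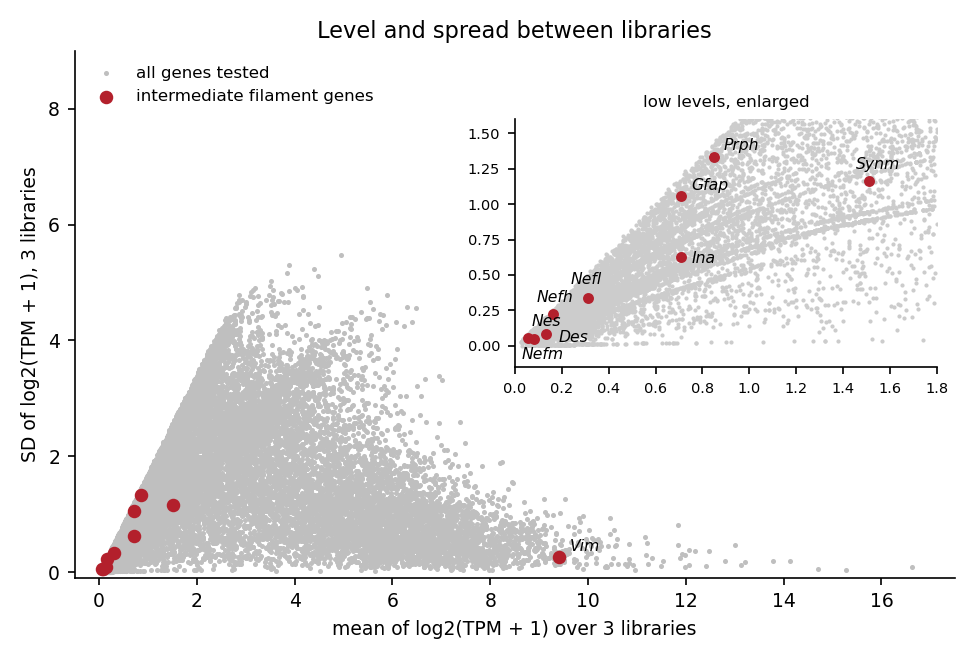
Mean against SD of log2(TPM + 1) over the 3 libraries for all genes tested (grey) and the 10 genes (red), with an enlargement of low levels. Vim stands at a mean of 9.42 with an SD of 0.26, and Prph, Synm and Gfap have the widest SDs of the 10, 1.34, 1.16 and 1.06.

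By root mean square difference in log2(TPM + 1) over the 3 libraries, the protein-coding genes most like Vim included Sparc, a matricellular protein, at 0.101, and Rab2a, a GTPase of vesicle traffic, at 0.134. Sparc had 824, 803 and 588 TPM. Those most like Synm were Traf5 at 0.124, Rtel1 at 0.142 and Nhlrc2 at 0.148.

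The promoter windows of the highest gene are shown beside those of 2 genes that were read almost only in single libraries. Each is the stretch of 250 bases before the RefSeq start (GRCm38.p6), and RefSeq sequences matched 7 of the 10 genes. The Vim window is chr2:13574061-13574310 on the forward strand, that of Prph chr15:99054924-99055173 on the forward strand and that of Gfap chr11:102897201-102897450 on the reverse strand. The windows of Vim and Gfap lie inside the spans of these genes given above, and that of Prph ends just before its span. For Vim and Gfap the windows thus do not precede the whole annotated gene. Capitals mark 3 short motifs, each searched on both strands. The TATA box was spelled TATAAA, the CAAT box was spelled CCAAT, and the GC box was spelled GGGCGG. No matches of different motifs overlapped in the 7 windows.
Vim: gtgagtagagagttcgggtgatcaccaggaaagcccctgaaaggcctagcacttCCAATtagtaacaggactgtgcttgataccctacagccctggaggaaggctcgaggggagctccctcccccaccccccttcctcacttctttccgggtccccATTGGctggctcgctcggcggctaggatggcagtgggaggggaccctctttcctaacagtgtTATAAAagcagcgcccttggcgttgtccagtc
Prph: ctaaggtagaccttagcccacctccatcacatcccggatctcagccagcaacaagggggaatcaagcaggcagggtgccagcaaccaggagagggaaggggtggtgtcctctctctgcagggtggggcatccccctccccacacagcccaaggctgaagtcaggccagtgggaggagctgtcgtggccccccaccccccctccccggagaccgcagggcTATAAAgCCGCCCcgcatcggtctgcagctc
Gfap: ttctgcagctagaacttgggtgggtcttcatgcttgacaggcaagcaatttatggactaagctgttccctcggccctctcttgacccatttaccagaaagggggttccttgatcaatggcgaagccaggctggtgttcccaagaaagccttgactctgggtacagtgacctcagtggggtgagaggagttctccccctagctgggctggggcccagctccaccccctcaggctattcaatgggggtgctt
The window of Vim held TATAAA from base 32 to base 27 before the start and a CAAT box at bases 196 to 192 and, on the reverse strand, 94 to 90. That of Prph held TATAAA at nearly the same place, bases 31 to 26, and a GC box on the reverse strand at bases 24 to 19. The Gfap window held none of the 3 motifs. Among 32851 RefSeq promoter windows of the same length, 12.4% held the TATA letters, 33.8% the CAAT box letters and 32.7% the GC box letters. Vim and Prph, which share the TATA letters, had 9439, 8899 and 6303 reads against 0, 20 and 0. Whether the letters bear on the RNA level was not tested. A match or its absence describes only these letters in these windows.

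Among the rest of the filament family, Lmna, which encodes the nuclear lamins A and C, was the 1 of 7 lamin, lens filament and Iffo genes above 1 TPM, with 283, 431 and 167 reads (19.9 ± 8.49 TPM, SD, n = 3; limma, adjusted p = 0.0164). Of these 7, 2 lay below 1 TPM and 4 neither way, Iffo2 and Iffo1 at 2.22 ± 2.94 and 1.89 ± 3.19 TPM among the latter. Their median of mean log2(TPM + 1) was 0.32. Of 14 keratins, the filaments of epithelia, 1 lay above, 4 below, 5 neither way and 4 had no read, with a median of 0.18. Krt10 was the 1 above, with 135, 55 and 84 reads (17.3 ± 7.44 TPM, SD, n = 3; limma, adjusted p = 0.0191), and Krt18 had 0, 121 and 0 reads. Vim lay far above Lmna, Krt10 and Krt18 in every library.

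Cytolinkers tie intermediate filaments to actin, microtubules, junctions and the nucleus. Of 14 such genes, nuclear anchors and dystrophin partners 13 were found in the table, and 5 lay above 1 TPM, 3 below and 5 neither way (median 2.85). Dmd, the dystrophin gene, had 245, 250 and 202 TPM (232 ± 26.5, SD, n = 3), Dst, the linker dystonin, 121 ± 18.5 and Syne2, a giant nesprin of the nuclear envelope, 72.9 ± 24.6 (limma, adjusted p from 0.00359 to 0.00613). All 3 libraries were alike in Dmd, and Dmd exceeded Synm, whose protein binds the dystrophin complex, in each of them. The desmosomal and envelope linkers Dsp, Evpl and Ppl were those below, named after their values were seen.

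Of 15 chaperones and turnover enzymes that act on filaments, 8 lay above 1 TPM, 1 below and 6 neither way (median 4.99). Cryab, a small heat shock protein that binds GFAP, desmin and vimentin filaments, had 1802, 1130 and 811 TPM (1248 ± 506, SD, n = 3), more than Vim in every library. Hspa8, the constitutive HSC70 chaperone, had 1011 ± 249 TPM and Hspb1, another small heat shock protein, 258 ± 166 (limma, adjusted p from 0.00359 to 0.0144). Of 15 kinases and phosphatases of filament proteins, 8 lay above, 1 below and 4 neither way and 2 had no read (median 4.99), led by Gsk3b at 222 ± 70.8 TPM, Rock1, a kinase that phosphorylates vimentin and GFAP, at 206 ± 65.3 and the phosphatase Ppp1cb at 171 ± 18.1. Of 11 motor genes, 4 lay above, 1 below and 5 neither way and 1 had no read (median 3.36), led by the kinesin heavy chain Kif5b at 124 ± 24.2 TPM, the dynein light chain Dynll1 at 97.1 ± 30.3 and Kif3a at 69.7 ± 46.1. The 1 motor below was Kif5a, a neuronal kinesin that carries neurofilaments, with 0, 1 and 3 reads. Kif5c had 9, 763 and 270 reads and Kif1a 850, 1019 and 53, and they were called neither way. These kinesins are named after their values were seen.

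Of 21 transcription factors linked to filament genes, 10 lay above 1 TPM, 2 below and 6 neither way and 3 had no read (median 3.97). Zeb2, a zinc finger factor of neural crest and glia, had 159, 179 and 173 TPM, Nfib 133 ± 25.5 and Nfia, a factor known to act on Gfap in astrocytes, 120 ± 42.6 (SD, n = 3; limma, adjusted p from 0.00359 to 0.00545). Of 23 actin, tubulin and associated genes, 13 lay above, 0 below (0 also at an unadjusted p under 0.05) and 9 neither way and 1 had no read (median 5.41). Actb had 1576 ± 477 TPM, Tuba1a 1493 ± 649 and Tmsb4x, which sequesters actin monomers, 1157 ± 203 (adjusted p from 0.00359 to 0.00368). Vim lay below Actb, Tuba1a and Tmsb4x in each library. Tuba1a is highly similar to other tubulins, so its value is uncertain. Markers of macrophages and other leukocytes had 0 of 12 above 1 TPM (limma; 0 also at an unadjusted p under 0.05), 2 below, 8 neither way and 2 without a read, led by Tyrobp with 0, 33 and 120 reads and Cd68 with 0, 196 and 0.

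**Figure D4:**
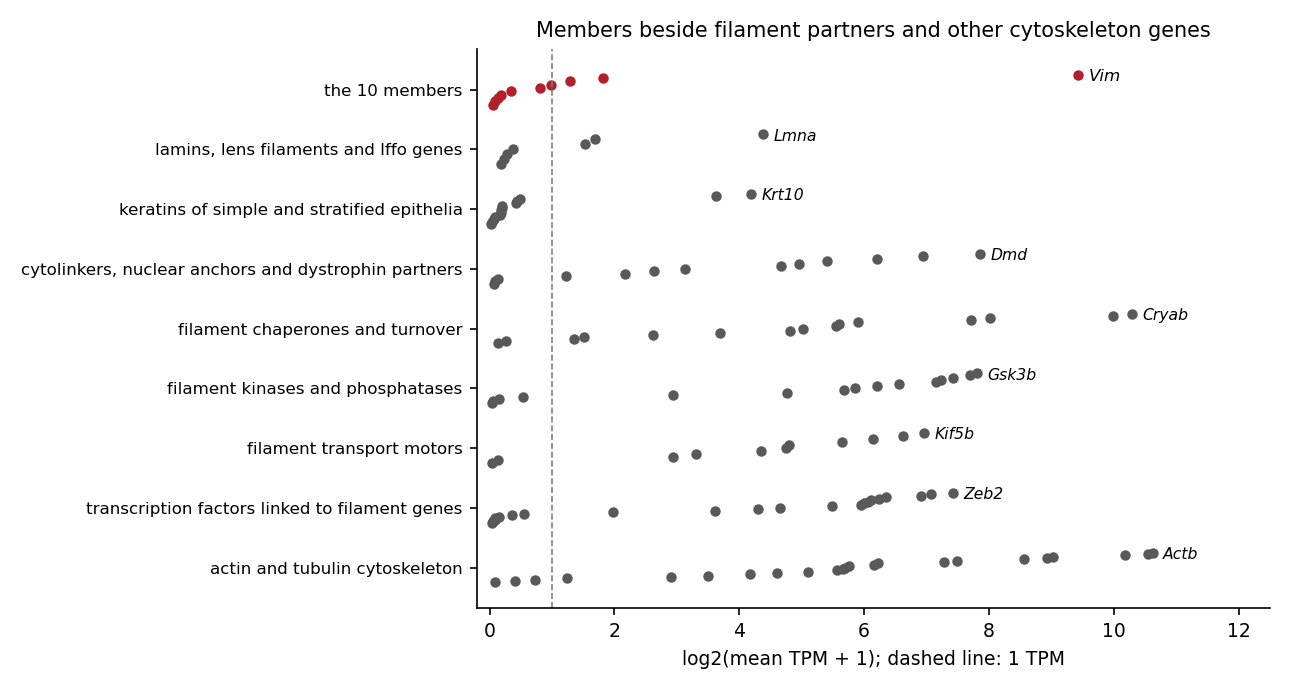
Mean TPM over 3 libraries, as log2(mean TPM + 1), of the 10 genes (red) and of the listed genes in 8 groups (grey), with the highest gene of each row named; the dashed line is 1 TPM. Vim stands alone to the right of its row at 689 TPM, while Cryab at 1248 TPM and Actb at 1576 TPM lie further right.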

How the data were processed

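RNA was measured in 3 libraries of 1 group, labelled biological replicates, and the authors deposited log2 TPM for 52550 genes, a level relative to gene length and library total. STAR, featureCounts and mm10 (GRCm38) are named per the submitters' processing notes, and the sources used here state no version, annotation, strand setting or filter. The values hold 0.25 read added to each gene. With exon lengths from GENCODE M21, 49035 genes came out as whole reads within 0.02 of a read, and lengths of 2758 more were solved from the values. Where a library has no read, reads are printed, and floors are the TPM of 3 reads. Reads are PCR copies, so intervals and floors cover counting error only.

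Genes with at least 1 read in at least 1 library (27529) were tested against 1 TPM on log2(TPM + 1) with limma 3.58.1 in R 4.3.3 (two-sided, Benjamini-Hochberg over all genes tested, threshold 0.05). Other values came from scipy 1.17.1 and pandas 2.3.3 under Python 3.11.15. The 10 genes, the 3 highest of each gene list, the 2 highest of each marker list and the 3 genes most like Vim and Synm are named by rule. The genes and lists were chosen with earlier results of these data known. A planned comparison of protein sequences was not run, and coding sequence was compared in its place. P-values measure the spread between these libraries only. Some genes and sequences that these rules select are not reported here.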

Additional observations from a re-analysis of the deposited data

How the results depend on the processing

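Vim was called above 1 TPM under pseudocounts of 0.5 and 0.1, without a filter, with a mean of at least 0.5 TPM and with a mean-variance trend. The same held without mitochondrially encoded genes and, chosen after seeing the data, on reads with nothing added. Set against levels of 0.5 and 5 TPM, Vim was called above those levels. Leaving out 1 replicate gave 0 to 1 of the 10 genes above and 0 to 4 below, and 0 to 2453 genes above and 0 to 5089 below over the table, with 0 above and below without replicate 1 or 2. There, limma at an unadjusted p under 0.05 gave 5 and 4 of the 10 genes below, and 7872 and 8204 over the table. The 4 of the 10 genes below became 0, as did the 5225 over the table, at a mean of at least 0.5 TPM (0 unadjusted, since low genes are removed), at a level of 0.5 TPM (2 and 1564 unadjusted) and without mitochondrially encoded genes (4 and 6648 unadjusted). The table's count below became 29850 with no filter, 9856 with a trend and 14074 at 5 TPM, where the 10 genes gave 4, 5 and 6. Family TPM rose to 873 without mitochondrially encoded genes, by rescaling. The difference from the tested level changed sign for uncalled genes only. With the level moved to 0.5 TPM it did so for Gfap (0.13), Prph (0.26) and Ina (0.13), and at 5 TPM for Synm (-1.08). These changes follow from the level itself. With 1 replicate left out, the sign changed for Gfap (-0.90 to 0.0485, above 0 without replicate 2) and Prph (-0.92 to 0.23, above 0 without replicate 1 or 3). It also changed for Synm (-0.0900 to 1.07, below 0 without replicate 2). The cause of the changes with a replicate left out was not tested. The 9 steps between neighbouring genes moved by less than their SD, except that a smaller pseudocount widened 3 of them, but 6 of them changed sign: Prph minus Ina (-0.82 without replicate 2, -0.42 at a pseudocount of 0.1), Ina minus Gfap (-0.16 and -0.63 without replicates 2 and 3), Gfap minus Nefl (-0.0235) and Nefl minus Nefh (-0.10) without replicate 1, and Nefh minus Des (-0.0719 without replicate 3, -0.00832 at a pseudocount of 0.1) and Nes minus Nefm (-0.00676 without replicate 3). No paired analysis was possible because there is 1 group. A read was worth 0.391 to 0.418 TPM on 1 kb, which limits what can be said of the genes with 1 to 6 reads.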
